A study of Mus musculus with 7 samples.

Results

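The slit diaphragm is the cell junction that spans the gap between neighbouring podocyte foot processes and forms the last layer of the glomerular filter. Nephrin (*Nphs1*) and Neph1 (*Kirrel*) reach across the gap from both sides, together with the giant protocadherin Fat1. The adaptor Cd2ap and the scaffold ZO-1 (*Tjp1*) tie the junction to the actin cytoskeleton, and signalling proteins such as the phospholipase *Plce1* and the calcium channel *Trpc6* act at it. Podocalyxin (*Podxl*) and the receptor tyrosine phosphatase Glepp1 (*Ptpro*) cover the free surface of the foot processes. Loss of several of these proteins causes foot process effacement and proteinuria, and reduced nephrin is a usual sign of podocyte injury in diabetes. Chromatin accessibility was examined at these 9 genes of 21853 protein-coding genes. They were chosen by name for their place in or beside the slit diaphragm, by a rule that uses no measured value. Earlier results of these data were known when they were chosen. Their promoters were the 500 nt on either side of each start site (TSS) of a protein-coding transcript in GENCODE vM21, and peaks across their gene bodies were taken as well.

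DNase-Seq was carried out on cells of a conditionally immortalised mouse podocyte line, which proliferates under permissive conditions and was differentiated and growth arrested before treatment. NG cells were held in 5 mM glucose for 36 h without a mimic. HG+NT cells were held in 25 mM glucose for 36 h with 50 nM of a non-targeting mimic, and HG+miR-93 cells in 25 mM glucose for 36 h with 50 nM of the miR-93 mimic. Each condition had 2 libraries, and 1 library of genomic DNA served as input. NG thus differed from HG+NT both in glucose and in the transfection, and their parts cannot be told apart. All of the cells were 1 cultured line, which has no neighbouring endothelium or basement membrane.

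The files used here hold 1 peak list per condition, made jointly from its libraries. No spread between replicates was therefore available, no test between conditions was run, and intervals given here cover counting error only. The lists hold 1036304 peaks under NG, 846027 under HG+NT and 900109 under HG+miR-93, of which 655, 475 and 500 overlapped the promoters or bodies of the 9 genes and 17, 18 and 15 overlapped their promoters. Peaks were called at p-values up to 0.9 and tile most of the genome, so presence of a peak says little, and the height of each peak was read instead. Depth, as a multiple of that of the input, was 2.24 under NG, 3.85 under HG+NT and 5.15 under HG+miR-93.

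Each promoter was given the value of its strongest overlapping peak in 3 ways. The fold is the authors' ratio of the fragments at the summit to the local input, and its percentile places the gene among the 21835 genes with a promoter peak in every list. The pileup is the number of fragments at the summit, recovered from the fold and p and scaled to the depth of the input, with its 95% Poisson interval. Ranks by pileup took the promoter peak with the most fragments, which was another peak than the one with the highest fold in some cases. The input mean is the level of input fragments that the fold was taken over. Where 3 values follow each other without a label they are in the order NG, HG+NT, HG+miR-93. Over all genes the median pileup was 4.91 under NG, 4.67 under HG+NT and 4.66 under HG+miR-93.

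The sequences at the sites the results turn on are shown first, all from GRCm38 and written 5′ to 3′ on the strand of the gene. Motif matches are in capitals: TGACGTCA, the cyclic AMP response element (CRE), and TGANTCA, the AP-1 site. The *Fat1* window, chr8:44935046-44935267 on the plus strand, lies upstream of the first start site and spans the summits of all 3 lists. The *Cd2ap* window, chr17:42876610-42876778 on the minus strand, likewise spans the 3 summits at its promoter. The *Tjp1* window, chr7:65469779-65469934 on the minus strand, is intronic and holds 3 summits within 35 bp of each other. The *Nphs1* stretch, chr7:30458065-30458314 on the plus strand, is the 250 bases before its first start site and is shown because the neighbouring *Kirrel2* begins 800 bp away on the other strand.
Fat1 promoter site: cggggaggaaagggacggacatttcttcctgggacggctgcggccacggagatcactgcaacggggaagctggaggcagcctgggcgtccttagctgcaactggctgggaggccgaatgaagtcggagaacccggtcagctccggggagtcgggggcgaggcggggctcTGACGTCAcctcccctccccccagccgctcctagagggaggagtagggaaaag
Cd2ap promoter site: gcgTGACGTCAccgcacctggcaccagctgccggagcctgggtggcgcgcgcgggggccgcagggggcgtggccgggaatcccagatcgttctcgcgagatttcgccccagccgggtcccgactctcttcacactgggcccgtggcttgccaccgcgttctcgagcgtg
Tjp1 intronic site: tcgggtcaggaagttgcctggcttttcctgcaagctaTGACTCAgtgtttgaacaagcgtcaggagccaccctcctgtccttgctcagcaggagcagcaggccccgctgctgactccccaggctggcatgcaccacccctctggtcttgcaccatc
Nphs1 upstream: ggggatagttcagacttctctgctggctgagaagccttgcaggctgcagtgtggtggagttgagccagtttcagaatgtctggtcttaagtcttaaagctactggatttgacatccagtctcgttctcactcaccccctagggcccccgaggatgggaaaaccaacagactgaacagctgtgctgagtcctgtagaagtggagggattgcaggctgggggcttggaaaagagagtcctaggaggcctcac
The *Fat1* and *Cd2ap* windows each hold 1 CRE, which is its own reverse complement. Of windows of the same length centred on the 15936 strongest HG+NT summits, 0.935% and 0.81% hold one. The CRE was added to the motifs after these windows had been read, so its presence in them is a description. The *Tjp1* window holds 1 AP-1 site, against 4.94% of windows of its length. None of the 4 sequences held the GC box GGGCGG, the CCAAT box CCAAT, the TATA box TATAAA or the homeobox core TAATTA on either strand. The GC content was 66.7% at *Fat1*, 72.2% at *Cd2ap*, 60.3% at the *Tjp1* intron and 53.6% before *Nphs1*.

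Promoter entries of RefSeq on GRCm38.p6 matched 8 of the 9 genes, all but *Podxl*. In the 250 bases before the RefSeq start, GC content ranged from 38.8% at *Plce1* to 76.4% at *Cd2ap*, around a median of 52.4% over 32841 promoters. *Kirrel* had the highest ratio of observed to expected CpG among the 8, 1.12, above 98.2% of promoters, followed by *Tjp1* at 0.89 and *Cd2ap* at 0.855. *Ptpro* and *Fat1* had the lowest ratios, 0.18 and 0.185. The RefSeq starts of *Nphs1*, 30460058, *Fat1*, 44950208, *Plce1*, 38524197, and *Ptpro*, 137252299, are not the starts beside the strongest promoter peaks described below, so these values do not describe the sequence at those peaks. *Tjp1* was the only one of the 8 with a GC box in this stretch, with 2 matches, and 32.8% of promoters hold one.

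Among proteins that span the slit, *Fat1* had the highest promoter of the 9 genes by pileup and by −log10 p in all 3 lists, and by fold in all but NG, where *Tjp1* was above it. Fat1 is an atypical cadherin that regulates actin at the junction. Its pileup was 10.3 (95% interval 6.51 to 15.4) under NG, 15.3 (11.7 to 19.8) under HG+NT and 12.4 (9.58 to 15.9) under HG+miR-93, from 23, 59 and 64 fragments. The summits lay 341, 266 and 240 nt upstream of the start at 44935447, inside the sequence given above. Its fold was 2.82, 4.3 and 3.36, which placed it at the 90.9th, 99.6th and 99.4th percentile of all promoters. Its −log10 p was 3.53, 7.3 and 4.79. The HG+NT pileup was 1.49 times that of NG and the HG+miR-93 pileup 0.812 times that of HG+NT, and all 3 intervals overlapped. Over the 1037 ranked genes of chromosome 8 the median pileup ratio of HG+NT to NG was 1.1, against 0.904 over all genes. The later starts of *Fat1*, 44950208 and 44950214, had lower pileups of 4.47, 5.45 and 6.41. Of these, the HG+NT and HG+miR-93 values lay above the median of all genes.

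Nephrin itself is the protein most closely tied to the slit. The strongest peak over the promoter of *Nphs1* gave a pileup of 4.02 (1.84 to 7.63) under NG, 4.41 (2.57 to 7.07) under HG+NT and 4.66 (2.99 to 6.94) under HG+miR-93, so every value lay below or at the median of all genes. Its fold was 1.25 under NG, 1.8 under HG+NT and 1.89 under HG+miR-93, at percentiles 9.99, 55.0 and 64.1. The difference in fold came with a lower input mean, 3 at the NG summit and 2 at each of the others. By pileup the percentile was 31.2, 40.2 and 44.5. Peak widths were 6136, 11899 and 17674 bp, with summits 1791 nt upstream, 442 nt inside and 7639 nt inside, as counted from the nearest of its 2 starts, so that the NG and HG+miR-93 heights were read outside the promoter itself. The same peak also overlapped the promoter of *Kirrel2*, which encodes the nephrin relative filtrin, in every list. In HG+NT and HG+miR-93 it was the strongest peak of both genes, at percentiles 55.0 and 64.1, so their accessibility cannot be told apart there. In NG a further peak placed *Kirrel2* higher, with a fold of 1.95 at percentile 56.0.

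*Kirrel*, the gene of the nephrin partner Neph1, showed opposite orders by fold and by pileup. Its fold was 2.25 under NG, 2.15 under HG+NT and 1.71 under HG+miR-93, at percentiles 72.3, 76.4 and 52.0. Its pileup was 4.47 (2.14 to 8.21), 5.45 (3.38 to 8.34) and 5.83 (3.93 to 8.32), so it was highest where the fold was lowest. The input mean at the summit was 1.43, 2 and 3. All summits were within 409 bp of each other, close to the start at 87174550. The difference of −24.4 percentile points between HG+NT and HG+miR-93 was just under the 25 points used here as a call. It was −27.0 ranked by −log10 p and −26.2 with promoters of 1000 nt, past that limit, and 7.80 by pileup.

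The genes of the podocyte surface, *Podxl* and *Ptpro*, moved away in percentile by fold under HG+NT and back under HG+miR-93. *Podxl* encodes the negatively charged sialomucin that keeps foot processes apart. Its fold was 2.8 under NG, 1.19 under HG+NT and 2.08 under HG+miR-93, at percentiles 90.4, 13.6 and 75.9. Its pileup was 5.81 (3.09 to 9.93), 4.93 (2.97 to 7.7) and 5.25 (3.46 to 7.63), a range in which the 3 lists could not be separated. The HG+NT summit lay 5815 nt inside the gene at an input mean of 4, whereas the NG summit lay 1110 nt upstream at 1.43 and the HG+miR-93 summit 421 nt inside at 2. By pileup the percentile was 51.5, 49.4 and 55.4.

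*Ptpro* encodes the phosphatase of the foot process membrane. Its strongest peak in every list was not at the first starts of the gene but near the internal starts at 137410721 and 137410737. There the fold was 1.7 under NG, 2.18 under HG+NT and 1.56 under HG+miR-93, at percentiles 37.7, 77.6 and 41.2. The pileup was 3.13 (1.26 to 6.44), 4.67 (2.77 to 7.39) and 3.69 (2.22 to 5.77). In HG+NT the summit was 3506 nt upstream of the internal start, inside an intron of the longer transcripts. At the first starts of the gene, 137252334 and 137252465, the pileups were 2.68, 3.38 and 2.92, which were low in every list.

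**Figure D1:**
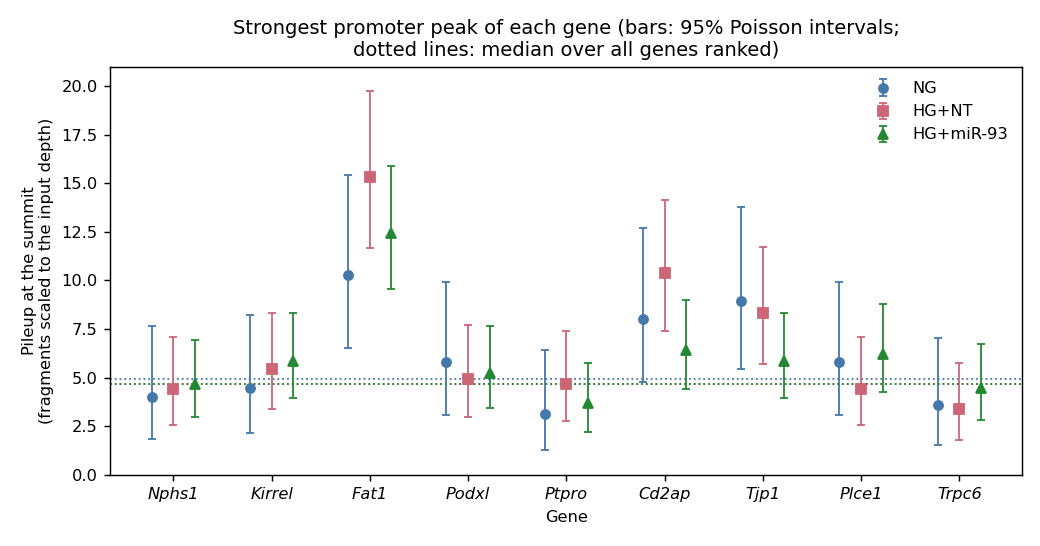
Pileup at the summit of the strongest promoter peak (fragments scaled to the input depth, vertical axis) for the 9 genes in NG (circles), HG+NT (squares) and HG+miR-93 (triangles), with 95% Poisson intervals; dotted lines mark the median of all ranked genes in each list. *Fat1* is highest in each list, at 10.3, 15.3 and 12.4, and the 3 intervals of every gene overlap.

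*Cd2ap* and *Tjp1*, the genes of the adaptor and the scaffold beneath the membrane, had the next most accessible promoters by pileup in NG and HG+NT. *Cd2ap* links nephrin to actin and to endocytosis. Its pileup was 8.04 (4.76 to 12.7) under NG, 10.4 (7.42 to 14.1) under HG+NT and 6.41 (4.41 to 9.01) under HG+miR-93, from 18, 40 and 33 fragments. Its summits were 306, 226 and 314 nt upstream of the start at 42876424, so that all 3 lists marked the sequence shown above. The input mean was 4 in each list, and the fold of 1.81, 2.28 and 1.48 thus followed the pileup. The percentile by fold was 44.8, 81.6 and 34.5. The HG+miR-93 pileup was 0.617 times that of HG+NT, and the intervals, 7.42 to 14.1 and 4.41 to 9.01, overlapped. By pileup the percentile was 68.3, 90.7 and 72.3.

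*Tjp1* encodes ZO-1, a scaffold of tight junctions in many epithelia. Its pileup was 8.93 (5.46 to 13.8) under NG, 8.31 (5.68 to 11.7) under HG+NT and 5.83 (3.93 to 8.32) under HG+miR-93, with folds of 2.92, 2.33 and 2.13 at percentiles 92.4, 83.3 and 79.0. Pileup, fold and the percentile by fold were thus highest in NG and lowest in HG+miR-93, whereas the percentile by pileup was 74.8, 82.4 and 64.8, and with summed folds the percentile was 2.06 points higher in HG+NT than in NG. The summits lay within 60 nt of a start in the first exons of its shorter transcripts. The start of the longest transcript, 65527696, had a lower pileup of 3.13, 3.38 and 3.3.

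Of the signalling genes, *Plce1* lay above *Trpc6* in every list by fold and by pileup. *Plce1* encodes the phospholipase C epsilon whose loss causes early-onset nephrotic syndrome. Its fold was 2.43 under NG, 1.95 under HG+NT and 2.41 under HG+miR-93, at percentiles 80.3, 64.4 and 89.9. Its pileup was 5.81 (3.09 to 9.93), 4.41 (2.57 to 7.07) and 6.22 (4.25 to 8.78), with all summits within 340 bp at the first of its 4 starts. *Trpc6*, the calcium channel of the foot process, had the lowest or nearly the lowest promoter of the 9 genes. Its fold was 1.34 under NG, 1.37 under HG+NT and 1.37 under HG+miR-93, at percentiles 14.4, 22.4 and 25.5. Its pileup was 3.57 (1.54 to 7.04), 3.38 (1.8 to 5.77) and 4.47 (2.83 to 6.71), all below the median of all genes.

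Taking the pileup at the peak with the highest fold, the order of the 9 promoters ran *Fat1*, *Tjp1*, *Cd2ap*, *Podxl* and *Plce1* together, *Kirrel*, *Nphs1*, *Trpc6*, *Ptpro* in NG. In HG+NT it ran *Fat1*, *Cd2ap*, *Tjp1*, *Kirrel*, *Podxl*, *Ptpro*, *Nphs1* and *Plce1* together, *Trpc6*. In HG+miR-93 it ran *Fat1*, *Cd2ap*, *Plce1*, *Tjp1* and *Kirrel* together, *Podxl*, *Nphs1*, *Trpc6*, *Ptpro*. With the peak of most fragments instead, *Plce1* was at 5.45 in HG+NT, level with *Kirrel*, and at 6.61 in HG+miR-93, above *Cd2ap*, and *Trpc6* was at 4.41 in HG+NT, level with *Nphs1*. Neighbours in the orders given had overlapping intervals, except that *Fat1* lay above *Cd2ap* in HG+miR-93. Of the 36 pairs of genes in a list, 1 was separated under NG, 10 under HG+NT and 8 under HG+miR-93. *Fat1* was the higher gene of the separated pair in 1, 6 and 8 of them, and *Cd2ap* in the other 4 pairs of HG+NT, above *Ptpro*, *Nphs1*, *Plce1* and *Trpc6*. The interval of *Plce1* at its peak of most fragments, 3.38 to 8.34, overlapped that of *Cd2ap*.

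The comparison of NG with HG+NT asks how high glucose with a transfection changed these promoters. A percentile that moved by at least 25 points was taken as a call, a rule of size with no test. *Nphs1* was higher by 45.0 points, *Ptpro* by 39.9 and *Cd2ap* by 36.8, and *Podxl* was lower by 76.8. These are 3 of 9 genes higher and 1 of 9 lower, where 20.0% of all genes were higher and 20.3% lower by as much. Ranked by pileup, the same changes were 9.03 points for *Nphs1*, 29.8 for *Ptpro*, 22.4 for *Cd2ap* and −2.06 for *Podxl*, so that *Ptpro* alone passed 25 points. The pileup intervals of NG and HG+NT overlapped at 9 of 9 genes, and 2.91% of all genes had intervals that did not.

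The comparison of HG+NT with HG+miR-93, in which both arms were transfected, asks what the miR-93 mimic added. *Podxl* was higher by 62.3 points and *Plce1* by 25.5, and *Cd2ap* was lower by 47.1 and *Ptpro* by 36.4. These are 2 genes higher and 2 lower of 9, against 16.1% and 16.0% of all genes. By pileup the changes were 5.95, 17.5, −18.3 and −19.6 points, and none reached 25. Intervals overlapped at 9 of 9 genes, and 2.33% of all genes had intervals that did not. From NG to HG+miR-93, *Nphs1* was the only gene past 25 points, higher by 54.1, against 21.2% of all genes higher and 21.1% lower. By pileup it moved by 13.4 points, whereas *Kirrel* moved by 26.8. Intervals overlapped at 9 of 9 genes, against 3.81% of all genes with separate intervals. The 3 comparisons share lists in pairs, so that *Cd2ap*, *Ptpro* and *Podxl*, which moved one way in HG+NT and back in HG+miR-93, each rest on 1 HG+NT value.

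**Figure D2:**
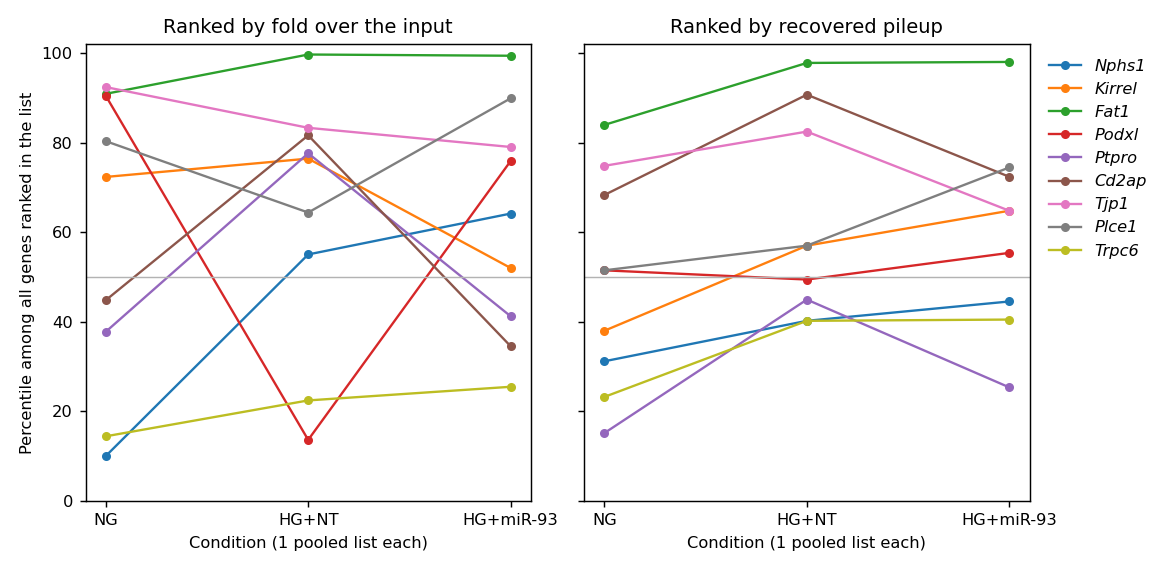
Percentile of each of the 9 promoters among all ranked genes (vertical axis) in the 3 conditions (horizontal axis), ranked by fold over the input (left) or by recovered pileup (right), 1 line per gene. *Podxl* is at 90.4, 13.6 and 75.9 by fold, and between 49.4 and 55.4 by pileup.

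The strongest peak had its summit within 500 nt of a start in every list at 5 of the 9 genes, *Kirrel*, *Cd2ap*, *Plce1*, *Fat1* and *Tjp1*, and at 36.8% of all genes. At *Nphs1*, *Podxl* and *Ptpro* the summits lay 1531 to 10840 bp apart in every comparison, and 6 of their 9 changes were called while *Nphs1* with 9.13 points, *Podxl* with −14.6 and *Ptpro* with 3.47 were not. *Cd2ap* had called changes with summits 80 and 88 bp apart. The count of 6 has no baseline, because the share of called changes was not taken over all genes with summits at least 1531 bp apart. The shares of all genes given above cover every distance between summits. The part of the summit's place in these changes was not tested. When the summit had to lie inside the promoter, *Nphs1* and *Podxl* could not be ranked in all lists, and *Ptpro* changed by −3.61 points from NG to HG+NT. *Cd2ap* was the gene with a called change, a fixed summit and an equal input mean in all lists.

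**Figure D3:**
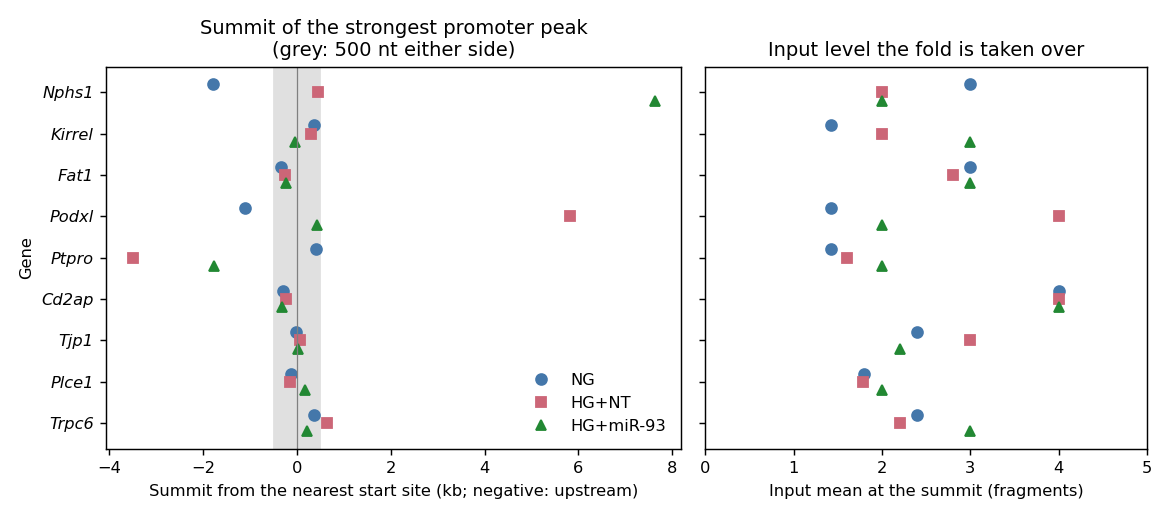
Distance of the strongest promoter peak's summit from the nearest start site (kb, left) and the input mean at that summit (fragments, right) for each of the 9 genes in the 3 lists; the grey band is 500 nt either side of the start. *Cd2ap*, *Fat1* and *Tjp1* have their summits together, while the *Podxl* summit of HG+NT lies 5815 nt inside the gene at an input mean of 4.

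As a group, the 9 promoters were above the middle of the genome by fold, with a median percentile of 72.3 under NG, 76.4 under HG+NT and 64.1 under HG+miR-93, where all genes have 50 by construction. With the folds of all promoter peaks summed, the HG+miR-93 median was 46.3, below the middle. By pileup the medians were 51.5, 57.0 and 64.8, which puts the group near the middle in NG. Each gene was given its strongest peak over all of its starts. The 9 genes have from 1 start at *Podxl* to 4 at *Plce1* and *Ptpro*, and this number was not matched in the ranking. The values within the group ran from 9.99 to 92.4, from 13.6 to 99.6 and from 25.5 to 99.4. The median change of the 9 genes was 8.01 points from the first list to the second and −0.272 from the second to the third, beside 0.0916 and 0.0321 over all genes.

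The gene bodies were then searched for the strongest peaks of each list, taken as at most 20000 by −log10 p, which left 17857 peaks under NG, 15936 under HG+NT and 16752 under HG+miR-93 once peaks tied at the border were left out. Such a peak overlapped the body or promoter of 7 of the 9 genes in each list, against 44.1% of all genes under NG, 36.3% under HG+NT and 33.9% under HG+miR-93. The members are long genes, from 28.9 kb for *Nphs1* to 304 kb for *Plce1*, and length was not matched in that share. At promoters alone, 4 genes had one in NG, *Plce1*, *Podxl*, *Fat1* and *Tjp1*, against 32.9% of all genes. In HG+NT they were *Cd2ap*, *Fat1* and *Tjp1*, against 24.5%, and in HG+miR-93 *Plce1* and *Fat1*, against 20.6%. *Trpc6* had no such peak anywhere along its 137 kb in any list, and *Nphs1* had 1, in HG+NT, in an intron 11050 nt from its nearest start. Both statements depend on leaving out the tied peaks. With these included, *Trpc6* had such a peak in NG and *Nphs1* in HG+miR-93 as well.

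*Fat1* and *Plce1* held most of the 60 strongest peaks found in the 9 genes. These counts were not scaled to gene length, and *Plce1* is the longest of the 9. Its length is 304 kb, against 117 kb for *Fat1*, 96.2 kb for *Kirrel* and 44.5 kb for *Podxl*. *Fat1* had 7 under NG, 6 under HG+NT and 7 under HG+miR-93, and *Plce1* 2, 5 and 8. *Ptpro* had 2, 0 and 4, *Tjp1* 2, 3 and 1, *Kirrel* 2, 1 and 2, *Podxl* 2, 1 and 1, and *Cd2ap* 1 in each list. The counts at *Plce1* followed the order of depth of the lists, and the part of depth in them was not tested. Of these peaks, 3 of 18 under NG, 3 of 18 under HG+NT and 3 of 24 under HG+miR-93 had a summit of both other lists within 150 bp, beside 17.3%, 15% and 11.4% of all strongest peaks.

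Taking together the sites that all 3 lists marked within 150 bp of a strongest summit, 6 positions were found in the 9 genes. They were the *Fat1*, *Cd2ap* and *Tjp1* promoters, an intron of *Tjp1*, an intron of *Cd2ap* and a coding exon of *Plce1*. At the *Tjp1* intron the summits were at 65469848 under NG, 65469874 under HG+NT and 65469839 under HG+miR-93, 57848, 57822 and 57857 nt from the nearest start. Their pileups were 4.47 (2.14 to 8.21), 5.45 (3.38 to 8.34) and 4.86 (3.14 to 7.17), each at an input mean of 1.43, and their intervals overlapped. The *Plce1* exon lies about 134 kb from the nearest start and 236 kb from the first start of the gene. There the pileups were 4.02 (1.84 to 7.63), 4.41 (2.57 to 7.07) and 7 (4.9 to 9.69). At the *Cd2ap* intron NG had 5.81 (3.09 to 9.93) and HG+NT and HG+miR-93 had 2.34 (1.07 to 4.44) and 2.33 (1.21 to 4.07), again with overlapping intervals. There the HG+NT and HG+miR-93 peaks each had a fold of 1.11 and a −log10 p of 0.49. They were at percentiles 49.8 and 56.1 of all peaks of their lists by −log10 p. Because the lists tile most of the genome, such a summit says little.

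**Figure D4:**
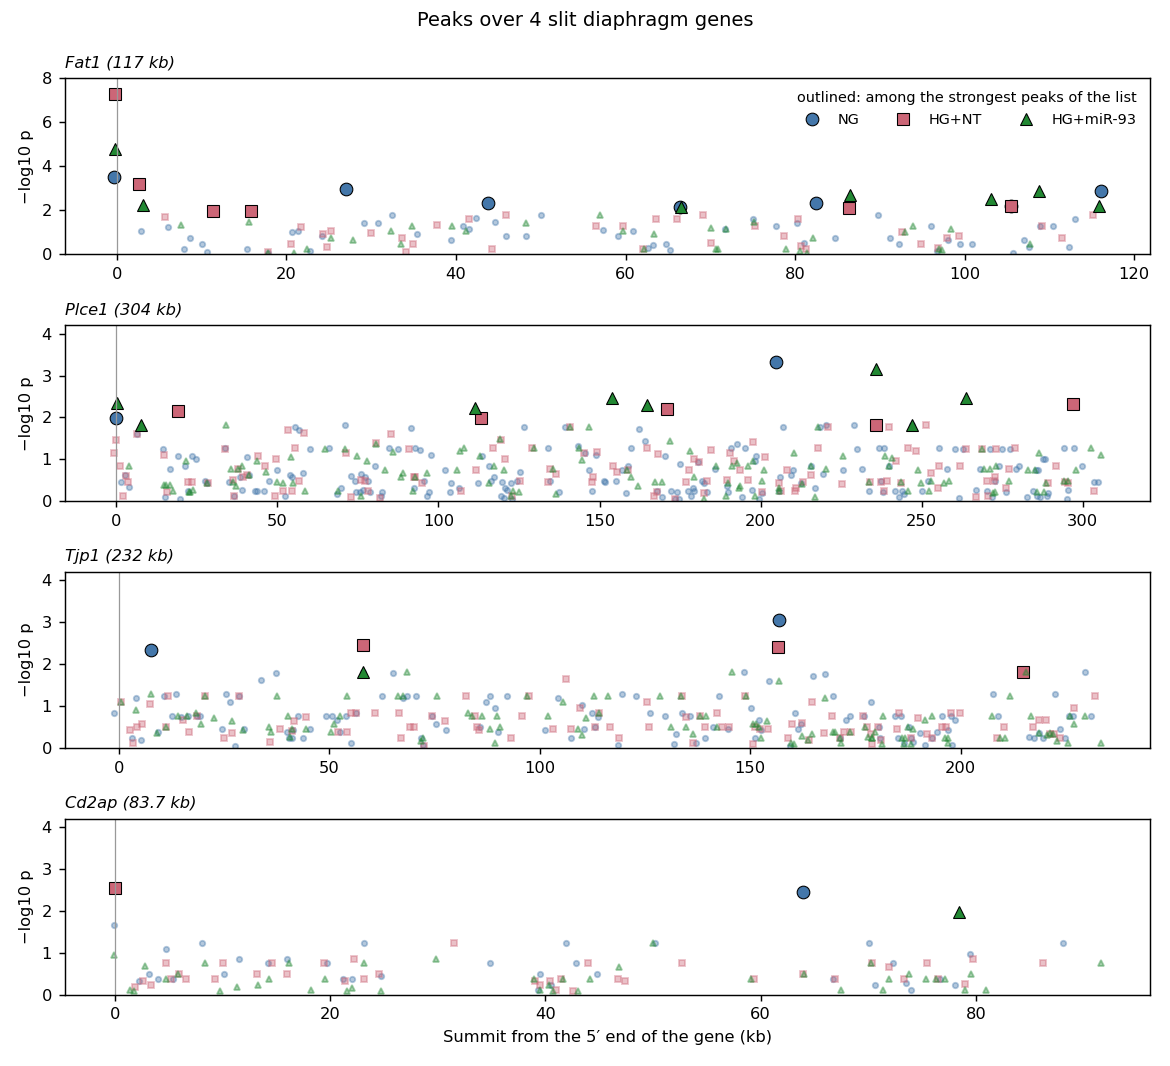
Peaks across *Fat1*, *Plce1*, *Tjp1* and *Cd2ap*, with the summit's distance from the 5′ end of the gene (kb, horizontal axis) against the −log10 p of the peak (vertical axis) in NG (circles), HG+NT (squares) and HG+miR-93 (triangles); large outlined symbols are among the strongest peaks of their list. The *Fat1* promoter stands out in all 3 lists, at −log10 p of 3.53, 7.3 and 4.79.

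Accessibility over whole gene bodies was highest at *Fat1* by pileup and low at *Trpc6* and *Cd2ap*. The median pileup over the peaks of each gene body was ranked over 12250 genes with at least 5 peaks in every list. *Fat1* was at percentiles 98.7, 95.4 and 96.8, with medians of 4.47, 4.41 and 4.86. *Podxl* was at 88.2, 90.8 and 82.9. *Trpc6* was low in each list, at 5.4, 12.1 and 18.8, and so was *Cd2ap*, at 27.9, 12.1 and 11.9, although its promoter was among the most accessible of the 9 by pileup. *Ptpro*, at 27.9, 49.1 and 52.7, and *Tjp1*, at 27.9, 49.1 and 35.4, were level with *Cd2ap* in NG and above it in the other lists. *Nphs1* was at 64.5, 81.4 and 85.2, over 11, 7 and 6 peaks. By median fold the order was another one. *Nphs1* was at 53.2, 97.4 and 97.2 and *Fat1* at 90.8, 95.3 and 88.7, so that *Nphs1* was the higher in HG+NT and HG+miR-93, and *Kirrel* at 92.9 and *Podxl* at 92.5 also lay above *Fat1* in HG+miR-93. *Trpc6* was at 17.4, 21.9 and 32.1 by fold and *Cd2ap* at 23.5, 13.4 and 19.2. Since peaks are wider in lists with fewer of them, the genes were compared within a list and not between lists. Within a list the genes also differed in peaks per 10 kb, ranked over the same genes. *Nphs1* was at percentiles 14.1, 5.6 and 3.37 of that density, *Podxl* at 69.5, 8.82 and 4.69 and *Fat1* at 42.2, 26.9 and 20.9. *Trpc6* was at 11.9, 25.0 and 35.2 and *Cd2ap* at 20.2, 68.1 and 73.1. Each peak was read at its summit, and the part of peak density in these medians was not tested.

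**Figure D5:**
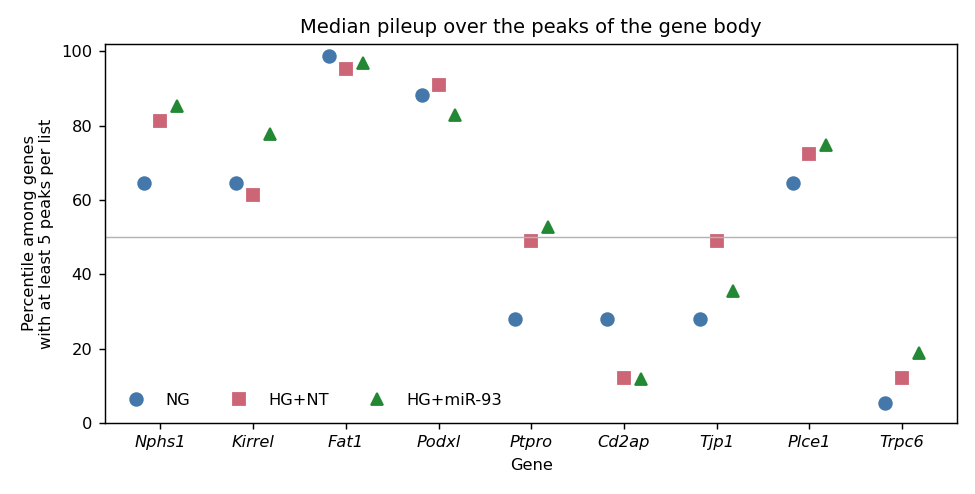
Percentile of the median pileup over the gene-body peaks (vertical axis, among genes with at least 5 peaks in every list) for the 9 genes in the 3 lists (circles NG, squares HG+NT, triangles HG+miR-93). *Fat1* stays above 95 and *Trpc6* below 20 in all 3 lists.

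The rest of the slit diaphragm pathway was read from a list of 28 genes. All were ranked, and their median percentile was 68.3 under NG, 68.3 under HG+NT and 68.7 under HG+miR-93. Of them, 5 were higher and 3 lower by 25 points in HG+NT than in NG, 2 and 3 with the miR-93 mimic than with the non-targeting one, and 6 and 4 in HG+miR-93 than in NG, shares of 28 genes to be read beside the percentages over all genes given above. Genes were named from it by the largest change in fold percentile whose sign was the same by fold, −log10 p and pileup, which held for 69.4%, 62.9% and 68.3% of all genes in the 3 comparisons and so says little about a gene. Between NG and HG+NT they were *Cdh3*, *Ezr* and *Dchs1*. *Cdh3*, the gene of P-cadherin, was at percentile 7.86, 93.0 and 97.3 by fold and 54.9, 73.3 and 78.6 by pileup. *Ezr*, whose product ezrin links podocalyxin to actin, was at 96.2, 27.2 and 82.5 by fold but at 77.9, 77.4 and 84.8 by pileup, which hardly differed between NG and HG+NT. *Dchs1*, a protocadherin that binds Fat family members, was at 5.48, 68.3 and 66.9 by fold and 23.2, 29.9 and 25.3 by pileup. With the miR-93 mimic against HG+NT they were *Nck2*, an adaptor that binds phosphorylated nephrin, with 89.3, 81.1 and 7.26 by fold and 54.9, 66.2 and 32.4 by pileup, then *Ezr*, and *Trpc5*, a calcium channel, with 27.0, 74.5 and 30.5 by fold and 23.2, 35.1 and 19.5 by pileup. From NG to HG+miR-93 they were *Cdh3*, *Nck2* and *Dchs1*. The pathway gene with percentiles most like those of *Nphs1* was *Dchs1*, at a Euclidean distance of 14.3 points over the 3 lists.

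Markers of other cells were read in the same way to check the label. The promoters of 8 further podocyte genes had median percentiles of 86.8, 93.1 and 73.0. Endothelial markers had 46.4, 48.4 and 47.7, mesangial 61.2, 75.3 and 73.1, proximal tubule 66.2, 26.3 and 45.1, and immune 27.1, 51.8 and 69.0, over 4 or 5 genes each. By pileup the podocyte genes had 79.5, 77.1 and 78.6, endothelial 43.4, 40.2 and 44.5, mesangial 44.7, 55.2 and 44.5, proximal tubule 59.9, 40.02 and 42.4, and immune 15.7, 27.5 and 30.8. The part of other cells in the results at the slit diaphragm genes was not tested.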

How the data were processed

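Upstream, the authors used TrimGalore! for trimming, Bowtie for mapping to mm10, a duplicate filter, and MACS2 for peaks over the genomic DNA input. The deposited lists, 1 per condition, give for each peak the authors' fold, a ratio of fragments at the summit to the local input with 1 added to each, and the −log10 p. The q values were not used. Versions of these tools are not given in the sources used here.

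The fragments at each summit and the input mean were solved from the fold and −log10 p of the authors, with 1 solution for 99.9% or more of peaks in each list, and the step was tested on simulated data. The input's background mean was 1.43 fragments. Lists rest on 6, 10 and 12 fragments at the median summit, so a single promoter has a wide counting interval.

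The 9 genes and the other gene lists were chosen with earlier results of these data known. All 9 were named, and of the pathway genes those with the largest change in percentile that had the same sign by fold, −log10 p and pileup, at most 3 per comparison. Alternatives were ranking by −log10 p or pileup, promoters of 1000 nt, summed folds, summits inside the promoter, folds over the chromosome's median, thresholds of 15 and 40 points, 90% intervals, the most strongly piled-up peak, other numbers of strongest peaks and, chosen after seeing the data, ties included. No columns of other samples were present. Computations ran in Python 3.11.15 (scipy 1.17.1, numpy 2.4.6, pandas 2.3.3), and plots in matplotlib 3.10.9.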

Additional observations from a re-analysis of the deposited data

How the results depend on the processing

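No paired analysis was possible because the files used here hold 1 joint list per condition. Of the 9 called changes, 36 of 50 values under the 6 ways of ranking kept the direction and passed 25 points, 12 kept the direction without passing, and 2 changed sign, so that 0 of the 9 passed under every way that could rank them: *Plce1*, HG+NT to HG+miR-93, was −1.04 points with summed folds, and *Ptpro* from NG to HG+NT was −3.61 points with summits inside the promoter. Of the changes not called, 6 values passed 25 points: *Kirrel*, HG+NT to HG+miR-93, by −log10 p (−27.0) and with promoters of 1000 nt (−26.2), *Kirrel* from NG to HG+miR-93 by pileup (26.8), *Trpc6* with summed folds (52.2 from NG to HG+NT and −45.3 with the mimic), and *Plce1* from NG to HG+NT over the chromosome's median (−33.0). Ranked by pileup, 1 gene was called from NG to HG+NT and 0 with the miR-93 mimic against HG+NT, in place of 4 and 4. With summits inside the promoter, the counts were 1, 2 and 0 of 7 genes in the 3 comparisons. A threshold of 40 points left 2 from NG to HG+NT, 2 from HG+NT to HG+miR-93 and 1 in HG+miR-93 against NG, where 15 points gave 2. The median percentile of the 9 genes was 51.5 in NG and 57.0 in HG+NT by pileup, and 55.8, 62.0 and 46.3 in the 3 lists with summed folds. Within the 5000 strongest peaks, 3, 5 and 3 genes had a peak in the 3 lists, against 21.9%, 18.3% and 15.8% of all genes. Among the 20000 strongest, promoters alone gave 4, 3 and 2, against 32.9%, 24.5% and 20.6% of all genes. With ties included, 8 genes had a peak among the strongest in each list, against 50%, 40.9% and 37.5% of all genes. The gene added was *Trpc6* in NG, *Ptpro* in HG+NT and *Nphs1* in HG+miR-93. The pileup intervals overlapped at all 9 genes under each alternative tried, 90% intervals included. The depth limits single promoters: an interval of *Nphs1* in NG spans 1.84 to 7.63.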
